A study of Mus musculus with 25 samples.

Results

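Genes of fatty acid uptake and oxidation were followed in cultured cardiac myocytes across 2 genotypes and 2 culture conditions. The list named 34 genes by their textbook roles, and 31 of them had a probe set annotated to that gene alone, out of 19938 genes measured in this way and 35557 probe sets in all. Where a gene had several such probe sets, the brightest on average across the 25 arrays stood for it, as was needed for Fabp3 and Hadhb. Acsl1 and Ucp2 were not analysed here, and the only probe set of Cpt1b, the muscle form of carnitine palmitoyltransferase 1, carried a second gene symbol and was not used.

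RNA came from primary neonatal mouse cardiac myocytes, either wild type (WT) or from transgenic mice (TG) in which the mlc2v promoter drives CHF1/Hey2, a transcriptional repressor, in the myocardium. There were 5 WT and 6 TG cultures kept without serum, and 7 WT and 7 TG cultures given 20% fetal bovine serum for 24 hours. Each array held RNA of an independent primary culture, labelled by the study as a biological replicate, but the litters behind the cultures are not given in the sources used here, so p-values measure the spread between cultures. The study checked the purity of the preparations by staining for sarcomeric myosin, and the array holds RNA of every cell in the dish.

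Values are log2 intensities after Robust Multichip Analysis (RMA), and 1 unit is a 2-fold difference. The arrays with and without serum stood on different scales. Within an array the SD over probe sets was 2.10 to 2.14 without serum and 2.54 to 2.60 with serum. TG and WT were therefore compared within each serum condition, and serum was compared with no serum by the percentile rank of a gene among all probe sets of its own array. The transgene was seen in the labelled cultures. Hey2 lay at 6.12 to 6.37 in WT and 7.08 to 8.55 in TG without serum, and at 6.59 to 7.36 in WT and 7.94 to 9.36 in TG with serum, with no overlap in either condition. The probe set cannot separate transgene from endogenous transcript. All 14 cardiac myocyte markers had a mean log2 of 5 or more in every group, and their mean over the list ranged from 10.88 to 12.38 over the 25 arrays. Markers of other cells were present too: the mean of 10 fibroblast markers ranged from 8.11 to 9.38, whereas 4 or 5 of the 7 adipocyte markers measured lay under 5 in each group.

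Fatty acids enter the cardiac myocyte after lipases release them from lipoproteins, are bound in the cytosol, activated to acyl-CoA and carried into mitochondria on carnitine. There, rounds of dehydrogenation, hydration, a second dehydrogenation and thiolysis shorten the chain and pass electrons to the respiratory chain. The heart takes up this fuel increasingly after birth, malonyl-CoA restrains its entry into mitochondria, and nuclear receptors of the PPAR family are known to drive many of these genes.

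Hadha and Hadhb encode the alpha and beta subunits of the mitochondrial trifunctional protein, which carries out the later steps on long chains, and they lie head to head on mouse chromosome 5. In the RefSeq annotation of GRCm38.p6 Hadha starts at position 30154980 on the minus strand and Hadhb at 30155253 on the plus strand, with 272 bases between the starts. The stretch before Hadhb is shown because 228 of its bases also belong to the same stretch before Hadha, while the ranks of the 2 genes went opposite ways with serum in WT. Ucp3, a mitochondrial carrier of the uncoupling protein family, is shown for the size of its rank change with serum. Echs1, the short-chain enoyl-CoA hydratase, is shown because its TG minus WT difference with serum had the second smallest p of the members. Each sequence holds the 250 bases before the annotated start, 5′ to 3′ on the gene's strand, with matches to AGGTCA on either strand in capitals. Hadhb lies at chr5:30155003-30155252 (plus strand), Ucp3 at chr7:100472741-100472990 (plus strand) and Echs1 at chr7:140116422-140116671 (minus strand).
Hadhb: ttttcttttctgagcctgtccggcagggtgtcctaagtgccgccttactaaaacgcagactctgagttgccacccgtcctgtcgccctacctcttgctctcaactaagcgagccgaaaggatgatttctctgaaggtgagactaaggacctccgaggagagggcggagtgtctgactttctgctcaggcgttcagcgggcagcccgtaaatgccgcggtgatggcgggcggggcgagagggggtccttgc
Ucp3: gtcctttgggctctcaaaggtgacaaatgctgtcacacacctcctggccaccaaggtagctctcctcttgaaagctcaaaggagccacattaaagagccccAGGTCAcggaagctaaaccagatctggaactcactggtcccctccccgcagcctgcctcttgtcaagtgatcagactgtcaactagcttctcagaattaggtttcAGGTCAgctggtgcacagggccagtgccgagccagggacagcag
Echs1: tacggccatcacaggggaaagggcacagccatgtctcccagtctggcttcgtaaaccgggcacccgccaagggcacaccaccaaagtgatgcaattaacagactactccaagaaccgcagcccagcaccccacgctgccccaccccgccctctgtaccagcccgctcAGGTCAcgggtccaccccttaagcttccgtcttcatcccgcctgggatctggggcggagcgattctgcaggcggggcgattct

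RefSeq windows from 250 bases before to 50 bases after a start were at hand for 28 of the 31 measured members, as 31 windows. AGGTCA, an element bound by many nuclear receptors, stood in 22.6% of the members' windows and in 16.3% of 32851 windows of all genes. The members holding it were Acacb, Acadm, Acadvl, Cd36, Cpt1a, Echs1 and Ucp3, the last with 2 matches. A direct repeat of AGGTCA with 1 base between the copies, in 0.04% of all windows, and TCAAGGTCA, the element named for estrogen-related receptors, in 0.423%, had 0 matches among the members. CACGTG, an E-box, was found for Pdk2 and Slc27a1, a share of 6.45% of windows against 7.15% of all windows. Both strands were searched, AGGTCA is contained in both longer elements, and a match describes these letters only.

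Without serum, no member passed the test between TG and WT myocytes. Hey2 itself did not pass it, at a log2 difference of 1.58 without overlap (adjusted p = 0.853 in limma). Because the test missed the transgene, it cannot decide whether the members differ between the genotypes without serum. The mean was higher in TG for 24 of 31 members, against 45.2% of all genes and 65% of the 4125 genes with a mean log2 of 8 or more. The median difference over the members was 0.05 on the log2 scale, against -0.01 over all genes and 0.03 over the genes with a mean of 8 or more. With limma, 0 members had an adjusted p under 0.05 (background 0% of probe sets), and 0 had an unadjusted p under 0.05 (background 5.64%). The adjusted p ran from 0.878 to 1.00. The groups were free of overlap for 0 members, and for 0.402% of probe sets. The lean toward TG depended on the scaling, with 18 of 31 members higher after a second quantile normalization (50.5% of probe sets) and 27 after centring arrays on their medians (62.0%). Markers of myocytes and of other cells leaned as well, with a higher TG mean for 12 of 14 myocyte markers (median 0.07) and a lower one for 7 of 8 epicardial, 8 of 10 fibroblast, 8 of 10 macrophage and 7 of 10 endothelial markers, 1 of these at an unadjusted p under 0.05 and an endothelial one, and their part in the members' lean was not tested. The mean of 6 smooth muscle markers was 8.46 in both genotypes.

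The 4 smallest p-values without serum belonged to genes of 4 different roles. Acadsb, the dehydrogenase of short branched acyl-CoA, read 6.43, 6.27, 6.50, 6.42 and 6.80 in the 5 WT cultures and ran from 6.36 to 6.84 in TG, with a median of 6.73. Its difference was 0.21 ± 0.10 (SE, adjusted p = 0.878 in limma). Only 1 WT culture exceeded the TG median, and the groups overlapped.

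Pdk2, a kinase that inhibits pyruvate dehydrogenase, read 8.90, 8.43, 8.79, 9.11 and 8.65 in WT and 8.43 to 9.42 in TG, with a median of 9.27, a difference of 0.34 ± 0.18 (SE). Hadh, the dehydrogenase of medium and short hydroxyacyl-CoA, read 9.53, 9.27, 9.55, 9.55 and 9.29 in WT and 9.40 to 9.77 in TG, with a median of 9.58. Fabp3, the fatty acid binding protein of heart muscle, read 11.42, 11.28, 11.48, 11.54 and 11.23 in WT and 11.20 to 11.79 in TG, with a median of 11.62. For each of these 3 genes, 5 of the 6 TG cultures lay above the WT mean, and TG replicate 5 lay lowest of the TG cultures.

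The fatty acid transporter Cd36, the receptor Ppara and Pdk4, a PPAR readout, showed smaller differences. Cd36, the membrane transporter of fatty acids, read 9.81, 9.44, 9.84, 9.80 and 10.32 in WT and 9.32 to 10.13 in TG (median 9.96), a difference of 0.06 ± 0.17 (SE). Ppara, the nuclear receptor for fatty acids, read 5.42, 5.25, 5.27, 5.42 and 5.59 in WT and 5.21 to 5.73 in TG (median 5.42), a difference of 0.05 ± 0.09 (SE). Pdk4, a second pyruvate dehydrogenase kinase and a widely used readout of PPAR activity, read 8.71, 9.004, 8.73, 8.55 and 8.40 in WT and 8.31 to 9.11 in TG (median 8.73). The Pdk4 means were 8.68 in both genotypes, and its 95% interval for the difference, from -0.32 to 0.32, spans 0.

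With serum, no member passed the test over all probe sets either. The mean was higher in TG for 25 of 31 members, against 44.6% of all genes and 56.5% of the genes with a mean of 8 or more. The median difference was 0.17 on the log2 scale, against -0.02 over all genes and 0.02 over the genes with a mean of 8 or more. With limma, 0 members had an adjusted p under 0.05 (background 0.00844% of probe sets) and the adjusted p ran from 0.344 to 0.991. At an unadjusted p under 0.05 there were 9 members, all higher in TG, a share of 29.0% against 4.39% of probe sets called in that direction and 7.9% of the genes with a mean of 8 or more. The groups were free of overlap for 0 members (background 0.256%).

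**Figure D1:**
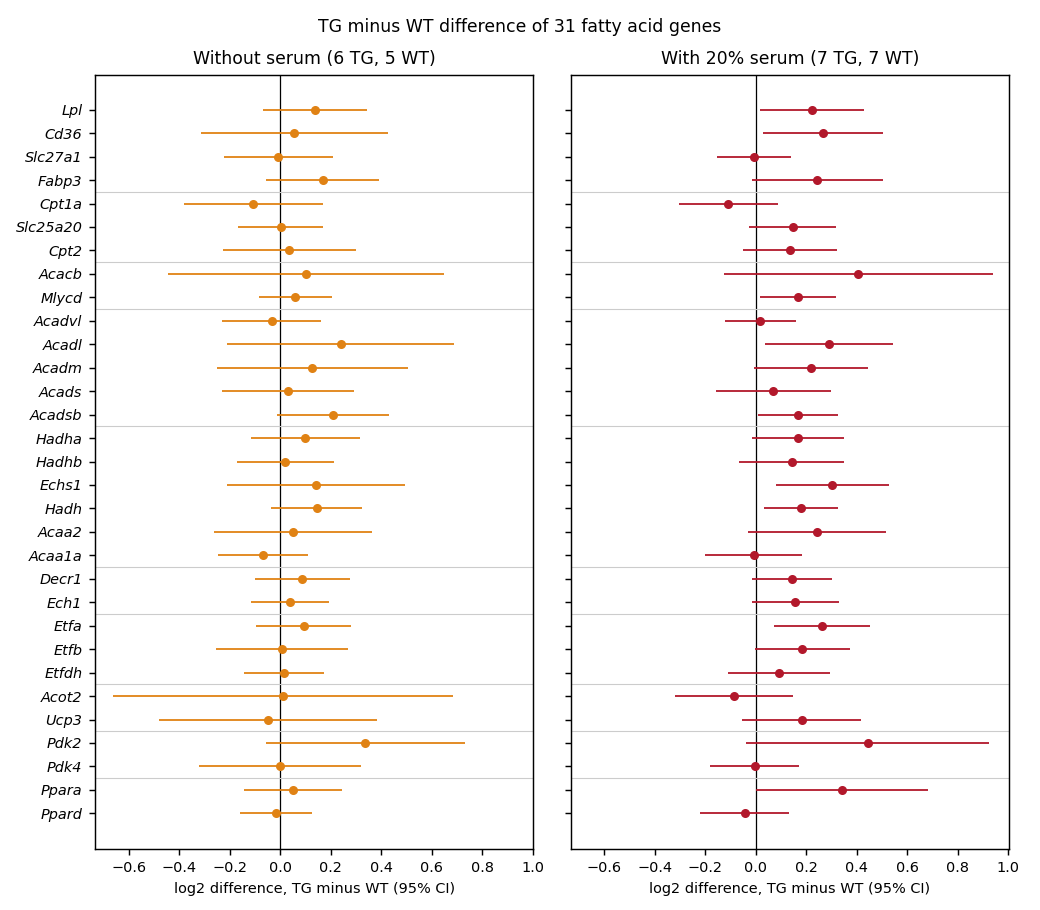
Difference between TG and WT myocytes for the 31 measured genes, ordered by role with grey lines between roles, without serum on the left and with 20% serum on the right. Points are the log2 difference of group means and bars its 95% confidence interval from limma. With serum 25 points lie above 0 and 9 intervals leave 0 out, whereas without serum 24 points lie above 0 and all 31 intervals include it.

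Genes of electron transfer and of the later steps of the cycle had the smallest p-values with serum. Etfa, the alpha subunit of the electron transfer flavoprotein, ran from 9.65 to 10.24 in WT (median 9.96) and from 9.98 to 10.35 in TG (median 10.18). The difference was 0.26 ± 0.09 (SE), a 1.20-fold higher mean (adjusted p = 0.344). All 7 TG cultures lay above the WT mean, and the 3 highest WT cultures lay above the lowest TG culture. Etfb, its partner subunit, and Etfdh, which hands the electrons on to ubiquinone, had differences of 0.18 ± 0.09 and 0.09 ± 0.10 (SE), neither at an unadjusted p under 0.05.

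Echs1 ran from 8.38 to 8.92 in WT (median 8.82) and from 8.76 to 9.25 in TG (median 9.04). The difference was 0.30 ± 0.10 (SE, adjusted p = 0.352). Hadh ran from 9.69 to 10.10 in WT (median 10.03) and from 10.04 to 10.24 in TG (median 10.18), a difference of 0.18 ± 0.07 (SE, adjusted p = 0.391). For both genes all 7 TG cultures exceeded the WT mean, though the groups overlapped. The trifunctional protein subunits Hadha and Hadhb had similar differences of 0.17 ± 0.08 and 0.14 ± 0.10 (SE), and the thiolase Acaa2 one of 0.24 ± 0.13 (SE), with none of the 3 at p under 0.05. The peroxisomal thiolase Acaa1a stood apart at -0.01 ± 0.09 (SE), and its near-identical copy Acaa1b may share its signal.

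Among the acyl-CoA dehydrogenases, which open each round of the cycle, all 5 had a higher TG mean with serum and 2 had an unadjusted p under 0.05. Acadl, for long chains, ran from 10.10 to 10.74 in WT (median 10.56) and from 10.35 to 10.96 in TG (median 10.85), a difference of 0.29 ± 0.12 (SE, adjusted p = 0.417). Acadsb ran from 6.85 to 7.16 in WT and from 6.89 to 7.38 in TG, with medians of 7.08 and 7.27 (adjusted p = 0.448). In both, 6 of 7 TG cultures were above the WT mean. Acadm, for medium chains, had a difference of 0.22 ± 0.11 (SE, adjusted p = 0.479), while Acads, for short chains, and Acadvl, for very long chains, differed by 0.07 ± 0.11 and 0.02 ± 0.07 (SE).

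Genes of uptake gave 2 of 4 members at an unadjusted p under 0.05 with serum. Cd36 ran from 9.11 to 9.74 in WT (median 9.59) and from 9.48 to 10.15 in TG (median 9.85), a 1.20-fold higher mean (adjusted p = 0.424). Lpl, the lipase that frees fatty acids from lipoproteins, ran from 9.70 to 10.28 in WT (median 10.05) and from 9.92 to 10.45 in TG (median 10.27), a 1.17-fold higher mean (adjusted p = 0.43). In each, 6 of the 7 TG cultures were above the WT mean and the groups overlapped. Fabp3 had a difference of 0.24 ± 0.12 (SE, adjusted p = 0.497), and its second probe set gave 0.23. Slc27a1, a fatty acid transport protein, differed by -0.01 ± 0.07 (SE).

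The gates of mitochondrial entry were mixed. Cpt1a, the liver form of the outer-membrane palmitoyltransferase, had the lowest difference of the members at -0.11 ± 0.09 (SE), while Slc25a20, the carnitine carrier, and Cpt2, the inner-membrane transferase, had 0.15 ± 0.08 and 0.14 ± 0.09 (SE). None of the 3 had p under 0.05. Mlycd, which removes malonyl-CoA, ran from 6.78 to 7.09 in WT (median 7.01) and from 6.97 to 7.37 in TG (median 7.09), a difference of 0.17 ± 0.07 (SE, adjusted p = 0.426). Acacb, which makes malonyl-CoA at the mitochondrion, had a larger but less certain difference of 0.41 ± 0.25 (SE), so that both the enzyme making the inhibitor and the one removing it had a higher TG mean.

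Of the genes that set fuel choice, Ppara ran from 4.61 to 5.62 in WT (median 5.20) and from 5.04 to 5.81 in TG (median 5.56), a difference of 0.34 ± 0.16 (SE, adjusted p = 0.465). Its 2 lowest cultures were WT replicates 3 and 4. Pdk2 had the largest difference of the members, 0.44 ± 0.23 (SE, adjusted p = 0.501). Pdk4 ran from 8.54 to 8.98 in WT (median 8.84) and from 8.55 to 9.02 in TG (median 8.83), with means of 8.80 and 8.79. Ppard, another PPAR receptor, differed by -0.04 ± 0.08 (SE), Ucp3 by 0.18 ± 0.11 (SE) and Acot2, a mitochondrial acyl-CoA thioesterase with the near-identical copy Acot1, by -0.09 ± 0.11 (SE). Decr1 and Ech1, which prepare unsaturated chains for the cycle, differed by 0.14 ± 0.07 and 0.16 ± 0.08 (SE).

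**Figure D2:**
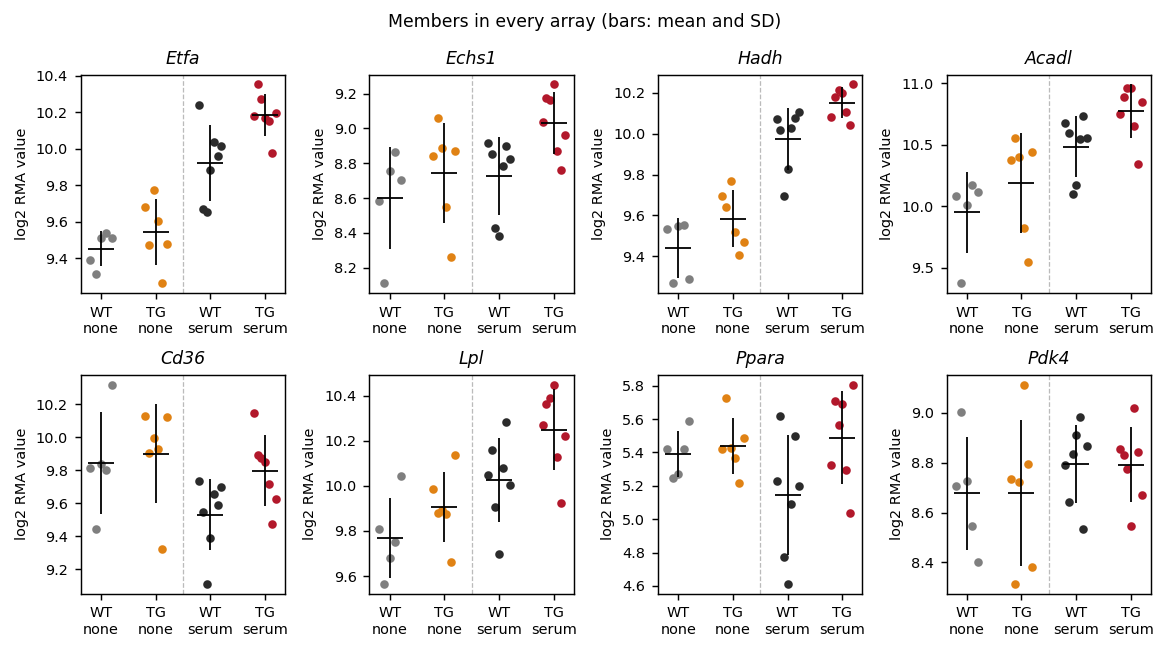
Log2 RMA values of 8 members in every array, with 5 WT and 6 TG cultures without serum and 7 of each with serum, in replicate order within a group. Black bars are the mean and SD. The values left and right of the dashed line stand on different scales and are not compared. With serum the TG cultures of Etfa, Echs1 and Hadh all lie above the WT mean, and the Pdk4 groups cover the same range.

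The same arrays were low in many members at once, and they were the arrays low in myocyte markers. In every group the culture with the lowest mean of the 14 myocyte markers held the lowest value of more members than any other culture of that group. WT replicate 2 without serum, at a marker mean of 10.97, held the lowest value of 18 of 31 members, or 58.1% against 20.4% of all genes. TG replicate 5 without serum, at 10.88, held 20, against 21.6% of genes. WT replicate 3 with serum, at 11.39, held 16, against 17.1% of genes, and TG replicate 6 with serum, at 11.52, held 22, or 71.0% against 26.3% of genes. Among genes with a mean log2 of 8 or more these 4 cultures held 35.3%, 23.5%, 18.0% and 30.9% of the lowest values.

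**Figure D3:**
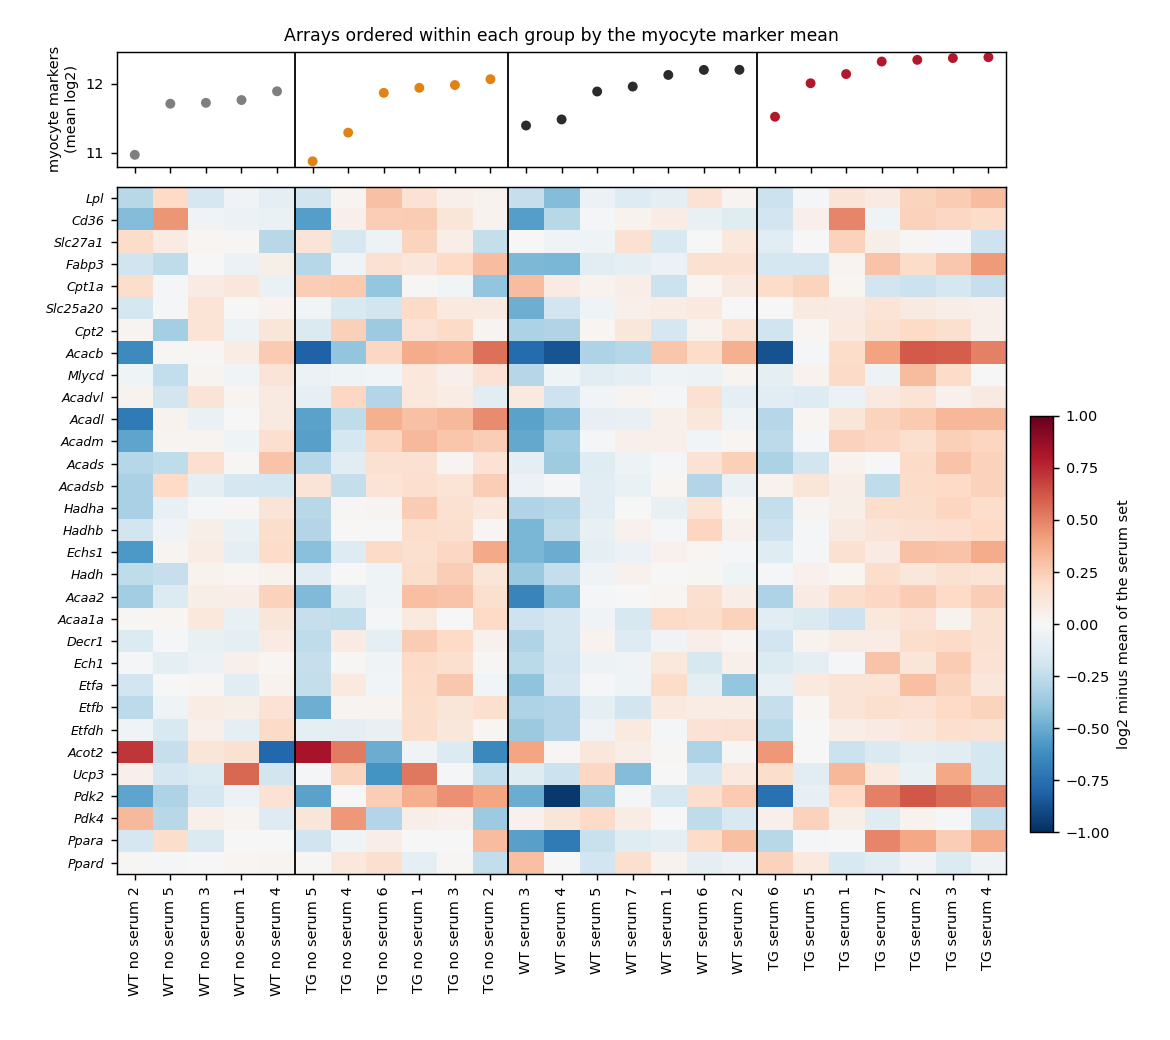
Top, the mean log2 of 14 cardiac myocyte markers in each of the 25 arrays, ordered from low to high within each group. Below, each member's log2 value minus its mean over all arrays of the same serum condition, in red above and blue below that mean. Most members are blue in the leftmost culture of each group, WT 2, TG 5, WT 3 and TG 6, whereas Acot2 is red in all 4 of them.

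A few members did not follow this pattern. Acot2 had its highest value of each group in just these 4 cultures, at 9.14 in WT replicate 2 and 9.25 in TG replicate 5 without serum, and at 8.60 in WT replicate 3 and 8.64 in TG replicate 6 with serum. Acadsb had its lowest values with serum in WT replicate 6 and TG replicate 7, which were not low in myocyte markers. Cpt1a and Pdk4 had their highest WT values without serum in replicate 2, at 8.43 and 9.004.

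The myocyte markers themselves leaned toward TG with serum, and the markers of endothelial cells toward WT. The marker mean ran from 11.39 to 12.20 in WT (median 11.96) and from 11.52 to 12.38 in TG (median 12.32), and 13 of 14 myocyte markers had a higher TG mean. All 10 endothelial markers had a lower TG mean with serum, the mean of the list running from 5.98 to 6.72 in WT and from 5.60 to 6.64 in TG, and none of the 10 lay under a mean log2 of 5. Of the 8 epicardial markers 7 had a lower TG mean, 3 of them at an unadjusted p under 0.05 against 2 of the 10 endothelial markers, while 7 of 10 macrophage markers had a higher one. The mean of 10 fibroblast markers was 8.76 in WT and 8.73 in TG. That of 6 smooth muscle markers was 8.98 in WT and 9.04 in TG. In these bulk cultures more myocytes and more RNA of these genes in each myocyte cannot be told apart. With the myocyte marker mean as a covariate, the median difference of the members with serum was 0.06 in place of 0.17, and 3 of the 9 members remained at an unadjusted p under 0.05. These were Etfa (0.19, adjusted p = 0.397), Echs1 (0.15, adjusted p = 0.307) and Acadl (0.10, adjusted p = 0.357). Because the markers themselves leaned toward TG, this fit cannot separate cell make-up from genotype. The part of cell make-up in the differences was not tested.

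Single cultures moved the count of members at an unadjusted p under 0.05, given here without the share of all probe sets in each setting. A shift of the members alone and a shift of all probe sets are therefore not told apart. Without TG replicate 6 the count was 19 instead of 9, and without WT replicate 6 it was 14. It was 3 without TG replicate 2, TG replicate 3 or WT replicate 3, and 5 without TG replicate 1, TG replicate 4 or WT replicate 4. Without WT replicates 3 and 4, the cultures with the highest endothelial marker means, it was 2 (Etfa and Acadsb), a setting chosen after the data had been seen. Etfa stayed at p under 0.05 in all 23 alternative settings for this comparison, Echs1 in 22 and Hadh in 20, whereas Ppara did so in 11. Without serum, leaving out the 3 arrays low in sarcomere transcripts (WT replicate 2, TG replicates 4 and 5) gave 7 members at p under 0.05, all higher in TG, among them Acadl (0.35, adjusted p = 0.145), Pdk2 (0.46, adjusted p = 0.207) and Acadm (0.22, adjusted p = 0.25), with 0 of the 31 past the adjusted test.

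The TG minus WT difference was not shown to depend on serum for any member. The interaction term had 0 members with an unadjusted p under 0.05 (background 4.26% of probe sets) and 0 with an adjusted p under 0.05 (background 0.00281%). The term was above 0 for 26 of 31 members, against 46.6% of genes, with a median of 0.09. For Ppara the difference with serum exceeded that without serum by 0.29 (95% interval -0.13 to 0.71), and for Etfa by 0.17 (-0.09 to 0.44). This term rests on the deposited log2 values, whose spread was wider with serum, where the median residual SD was 0.174 against 0.115.

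By rank within the array, serum went with a lower position for most of the members that passed, but the share that passed was close to that of all probe sets. In WT 20 of 31 members had an adjusted p under 0.05 in limma on percentile ranks, or 64.5% against a background of 58%, with 16 lower (background 29.2%) and 4 higher (28.8%). In TG 15 of 31 passed, or 48.4% against 59.9%, with 11 lower (background 30.1%) and 4 higher (29.8%). The 15 that passed in TG all passed in WT in the same direction. The groups were free of overlap for 9 of 31 members in WT, against 35.9% of probe sets. In TG this held for 8 of 31, against 35.2%. The median change was -1.05 percentile points in WT and -0.57 in TG, against 0.04 and 0.06 over all genes. Serum and the separate scale of its arrays cannot be told apart. A rank does not move with a monotone change of scale, but a probe set's own response may differ between normalizations, and near the top of the array a percentile point spans more intensity than in the middle.

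The deepest fall in percentile points, which span less intensity in the middle of the array than near its top, was that of Ucp3. Its mean log2 with serum was 4.58 in WT and 4.77 in TG, both under 5. It stood at percentiles 64.6, 58.4, 56.4, 55.5 and 56.3 in WT without serum and at 35.0 to 44.2 with serum (median 40.3), and it fell by 18.4 ± 2.13 points (SE, adjusted p = 1.43e-07). In TG it stood at 50.3 to 64.6 (median 58.1) and at 39.0 to 47.6 (median 42.0), and fell by 14.71 ± 2.03 points. The groups did not overlap in either genotype (background 35.9% of probe sets in WT and 35.2% in TG).

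Both enzymes for unsaturated chains fell in both genotypes without overlap (background in either direction 35.9% of probe sets in WT and 35.2% in TG). Ech1, a dienoyl-CoA isomerase, stood at 95.7, 95.6, 95.2, 95.5 and 95.1 in WT without serum and at 89.6 to 91.8 (median 90.9) with serum, a change of -4.63 ± 0.454 points (SE, adjusted p = 1.06e-08). The TG cultures ranked at 94.4 to 95.96 (median 95.4) without serum and 90.3 to 92.9 (median 91.8) with serum, a change of -3.82 ± 0.431 points (SE, adjusted p = 8.37e-08). Decr1, a dienoyl-CoA reductase, stood at 91.7, 91.6, 91.7, 92.5 and 92.03 in WT without serum and at 86.1 to 89.3 (median 88.3) with serum, a change of -3.84 ± 0.569 points (SE, adjusted p = 4.6e-06). Every culture with serum lay below every culture without for both genes. In TG Decr1 stood at 90.3 to 93.2 (median 92.4) without serum and 86.96 to 89.7 (median 89.3) with serum, a change of -3.18 ± 0.541 points (SE, adjusted p = 2.53e-05).

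Mlycd and Acadvl also fell without overlap in both genotypes (background in either direction 35.9% of probe sets in WT and 35.2% in TG). Mlycd stood at 74.6, 74.9, 75.5, 76.7 and 72.2 in WT without serum and at 66.5 to 69.99 (median 69.1) with serum, a change of -5.95 ± 0.796 points (SE, adjusted p = 1.14e-06). In TG the percentiles were 74.2 to 76.97 (median 75.2) without serum and 68.5 to 72.9 (median 69.9) with serum, a change of -4.77 ± 0.757 points (SE, adjusted p = 1.04e-05). The enzyme that removes malonyl-CoA thus ranked lower with serum. Acacb, which makes malonyl-CoA, changed by -6.07 ± 2.90 points in WT (SE, adjusted p = 0.0772 in limma). In TG Acacb changed by -2.71 ± 2.75 points (SE, adjusted p = 0.411 in limma). It passed in neither genotype, and its standard errors were larger than those of Mlycd. Acadvl stood at 93.5, 93.7, 93.9, 93.8 and 92.4 in WT without serum and at 89.1 to 91.5 (median 90.2) with serum, a change of -3.18 ± 0.458 points (SE, adjusted p = 3.18e-06). Its TG values were 91.8 to 94.3 (median 93.1) without serum and 89.3 to 90.98 (median 90.4) with serum, a change of -2.84 ± 0.435 points (SE, adjusted p = 6.53e-06).

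Cd36, Fabp3 and Ppard fell without overlap in WT (background in either direction 35.9% of probe sets) and with overlap in TG. Cd36 stood at 95.3, 94.01, 95.4, 95.3 and 96.8 in WT without serum and at 89.2 to 92.8 (median 92.3) with serum, a change of -3.61 ± 0.669 points (SE, adjusted p = 7.77e-05). In TG it stood at 93.1 to 96.2 (median 95.8) without serum and 91.3 to 94.7 (median 93.3) with serum, a change of -2.4 ± 0.636 points (SE, adjusted p = 0.00247). The transporter Cd36 thus fell in rank in both genotypes, while Slc27a1 rose. Fabp3 stood at 98.9, 98.6, 98.9, 99.02 and 98.6 in WT without serum and at 96.5 to 97.99 (median 97.4) with serum, a change of -1.48 ± 0.328 points (SE, adjusted p = 0.000528). The TG cultures ranked at 98.4 to 99.3 (median 99.1) without serum and 97.1 to 98.4 (median 98.04) with serum, a change of -1.09 ± 0.311 points (SE, adjusted p = 0.00454). Its second probe set also fell in WT, with a change of -1.79 points. Ppard stood at 74.7, 74.9, 74.5, 75.01 and 74.4 in WT without serum and at 68.4 to 73.6 (median 70.5) with serum, a change of -4.05 ± 0.813 points (SE, adjusted p = 0.000183). On the deposited log2 scale the Ppard mean was higher with serum in both genotypes, by 0.04 in WT and 0.02 in TG. In TG the percentiles were 72.1 to 76.6 (median 74.5) without serum and 68.9 to 72.7 (median 69.96) with serum, a change of -4.33 ± 0.772 points (SE, adjusted p = 4.44e-05).

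Cpt2, Acot2 and Pdk4 fell in both genotypes with overlapping groups. Cpt2 stood at 88.5, 89.3, 89.9, 89.8 and 86.1 in WT without serum and at 82.4 to 86.6 (median 85.7) with serum, a change of -3.93 ± 0.9 points (SE, adjusted p = 0.000706). Its TG values were 86.01 to 90.6 (median 89.2) without serum and 83.3 to 86.9 (median 86.1) with serum, a change of -2.95 ± 0.855 points (SE, adjusted p = 0.00501). On the deposited log2 scale the TG mean of Cpt2 was higher with serum, by 0.09. Acot2 had the widest spread without serum of these 3 genes. It stood at 88.9, 92.6, 88.7, 80.6 and 85.9 in WT without serum and at 79.3 to 85.3 (median 82.2) with serum, a change of -5.07 ± 1.78 points (SE, adjusted p = 0.0184). In TG it stood at 82.1 to 92.7 (median 86.8) without serum and 79.8 to 85.4 (median 80.7) with serum, a change of -5.98 ± 1.69 points (SE, adjusted p = 0.00416). PPAR receptors are known to drive many of the members, and Pdk4 is a widely used readout among them. It stood at 89.9, 91.9, 89.98, 88.8 and 87.6 in WT without serum and at 85.3 to 88.5 (median 87.1) with serum, a change of -2.63 ± 0.847 points (SE, adjusted p = 0.0108). The TG cultures ranked at 86.8 to 92.2 (median 89.7) without serum and 84.9 to 88.5 (median 86.97) with serum, a change of -2.53 ± 0.804 points (SE, adjusted p = 0.00955). On the deposited log2 scale the Pdk4 mean was higher with serum in both genotypes, so its direction rests on the use of ranks.

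The 4 members that rose were the same in both genotypes and came from uptake, the carnitine shuttle, thiolysis and electron transfer. Slc27a1 stood at 71.5, 73.9, 71.9, 68.6 and 72.3 in WT without serum and at 76.9 to 79.9 (median 78.6) with serum, a change of 7.1 ± 0.895 points (SE, adjusted p = 4.9e-07). In TG the percentiles were 69.4 to 73.8 (median 71.8) without serum and 76.4 to 81.1 (median 78.5) with serum, a change of 6.96 ± 0.85 points (SE, adjusted p = 2.75e-07). Among the members it alone rose without overlap in both genotypes (background in either direction 35.9% of probe sets in WT and 35.2% in TG). Slc25a20 stood at 88.6, 87.6, 89.6, 88.9 and 88.4 in WT without serum and at 87.9 to 91.9 (median 91.2) with serum, a change of 2.07 ± 0.574 points (SE, adjusted p = 0.00374). Its TG values were 87.3 to 89.6 (median 88.6) without serum and 90.99 to 92.1 (median 91.4) with serum, a change of 3.003 ± 0.545 points (SE, adjusted p = 5.5e-05). In WT 1 culture with serum lay inside the range of those without, and in TG the groups did not overlap. Etfdh stood at 94.95, 95.2, 95.4, 95.8 and 94.6 in WT without serum and at 95.2 to 96.9 (median 96.4) with serum, a change of 1.05 ± 0.349 points (SE, adjusted p = 0.0135). In TG it stood at 94.7 to 95.7 (median 95.1) without serum and 95.5 to 96.9 (median 96.7) with serum, a change of 1.39 ± 0.332 points (SE, adjusted p = 0.001).

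Hadhb was the fourth, while its head-to-head neighbour Hadha went the other way in WT. Hadhb stood at 96.1, 95.9, 96.4, 96.8 and 96.2 in WT without serum and at 96.5 to 98.1 (median 97.7) with serum, a change of 1.23 ± 0.322 points (SE, adjusted p = 0.00236). The TG cultures ranked at 95.2 to 96.8 (median 96.3) without serum and 97.1 to 98.1 (median 98.01) with serum, a change of 1.57 ± 0.306 points (SE, adjusted p = 0.000124). Its groups overlapped in WT and did not in TG (background 35.2% of probe sets), and its second probe set also rose in WT, by 1.45 points. Hadha stood at 97.1, 96.2, 96.9, 97.3 and 96.8 in WT without serum and at 95.2 to 96.7 (median 96.03) with serum, a change of -0.899 ± 0.333 points (SE, adjusted p = 0.0247). In TG the percentiles were 96.1 to 97.5 (median 97.1) without serum and 95.4 to 96.9 (median 96.7) with serum, a change of -0.559 ± 0.316 points (SE, adjusted p = 0.133), which did not pass. The difference between both genes was not tested, and on the deposited log2 scale both means were higher with serum.

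Another 5 members passed in WT but not in TG, all of them lower with serum: Lpl, Hadha, Echs1, Acaa2 and Ppara. Ppara stood at 55.4, 52.5, 53.2, 54.9 and 57.7 in WT without serum and at 40.2 to 53.9 (median 48.7) with serum, a change of -6.88 ± 1.92 points (SE, adjusted p = 0.00387). Its TG values were 52.96 to 59.6 (median 55.8) without serum and 47.6 to 56.1 (median 54.04) with serum, a change of -2.88 ± 1.82 points (SE, adjusted p = 0.178). Lpl stood at 95.3, 94.5, 94.8, 95.1 and 95.97 in WT without serum and at 92.8 to 95.2 (median 94.2) with serum, a change of -1.05 ± 0.427 points (SE, adjusted p = 0.0393). The TG change of Lpl was -0.572 points (adjusted p = 0.231), within 94.6 to 96.2 (median 95.5) and 93.5 to 95.6 (median 95.1). Echs1 stood at 88.97, 85.5, 90.2, 90.9 and 89.8 in WT without serum and at 83.6 to 88 (median 87.03) with serum, a change of -2.67 ± 1.05 points (SE, adjusted p = 0.0334). In TG it stood at 86.1 to 91.8 (median 90.6) without serum and 86.5 to 90.02 (median 88.7) with serum, a change of -1.25 ± 0.998 points (SE, adjusted p = 0.289). WT replicate 2 without serum was the lowest of its group for Lpl, Hadha, Echs1, Acaa2 and Ppara. Acaa2 stood at 98.8, 98.1, 98.7, 98.96 and 98.4 in WT without serum and at 96.4 to 98.4 (median 98.01) with serum, a change of -0.842 ± 0.36 points (SE, adjusted p = 0.0497). The TG cultures ranked at 97.7 to 99.04 (median 98.8) without serum and 97.3 to 98.5 (median 98.4) with serum, a change of -0.366 ± 0.342 points (SE, adjusted p = 0.369). On the deposited log2 scale the WT means of Lpl, Hadha, Echs1 and Acaa2 were higher with serum, by 0.26, 0.21, 0.13 and 0.04, so that among these 5 genes the direction held on both scales for Ppara alone in WT. Ppara was also the dimmest of these 5 genes, with a mean log2 of 5.15 in WT with serum. That a gene passed in 1 genotype only does not show that the genotypes differ, and the interaction term had 0 members at an unadjusted p under 0.05 on log2 values and on percentiles alike. The 11 members that passed in neither were Cpt1a, Acacb, Acadl, Acadm, Acads, Acadsb, Hadh, Acaa1a, Etfa, Etfb and Pdk2.

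**Figure D4:**
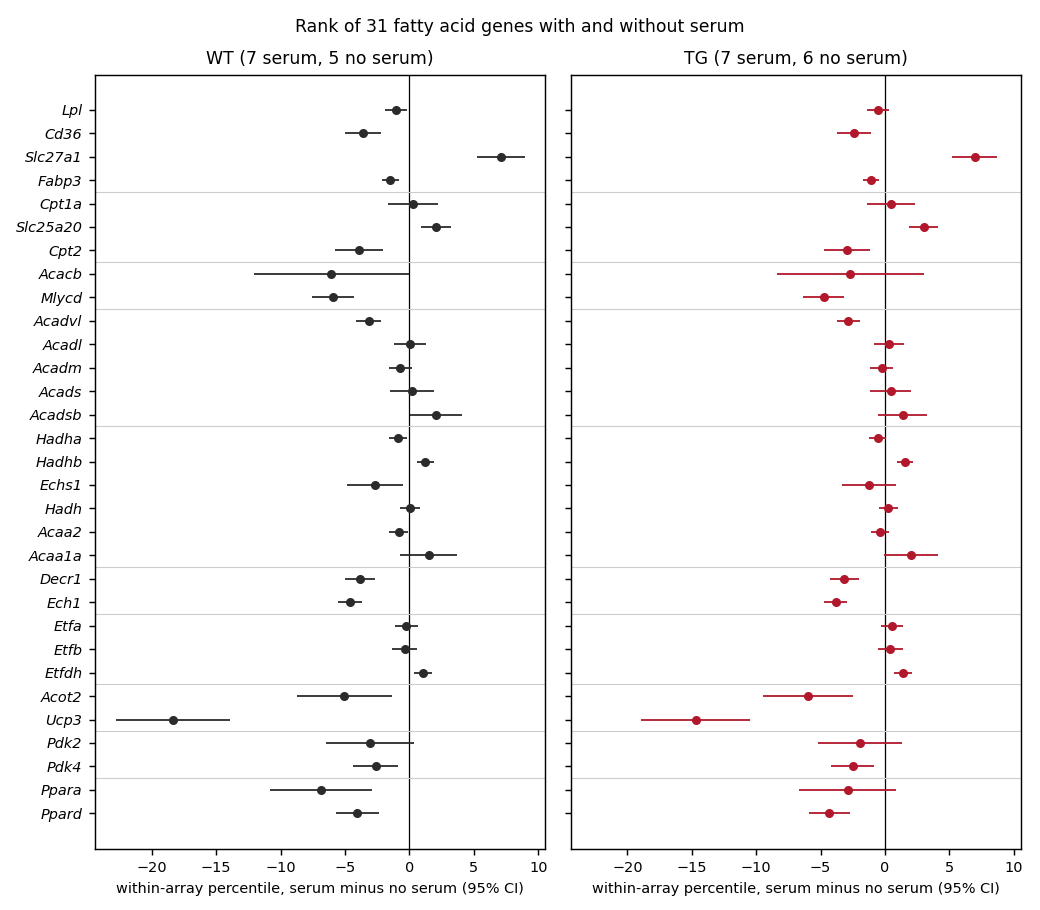
Change in within-array percentile from no serum to serum for the 31 genes, WT on the left and TG on the right, ordered by role. Points are differences of group means in percentile points and bars the 95% interval from limma. Ucp3 lies furthest below 0 and Slc27a1 furthest above 0 in both genotypes.

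**Figure D5:**
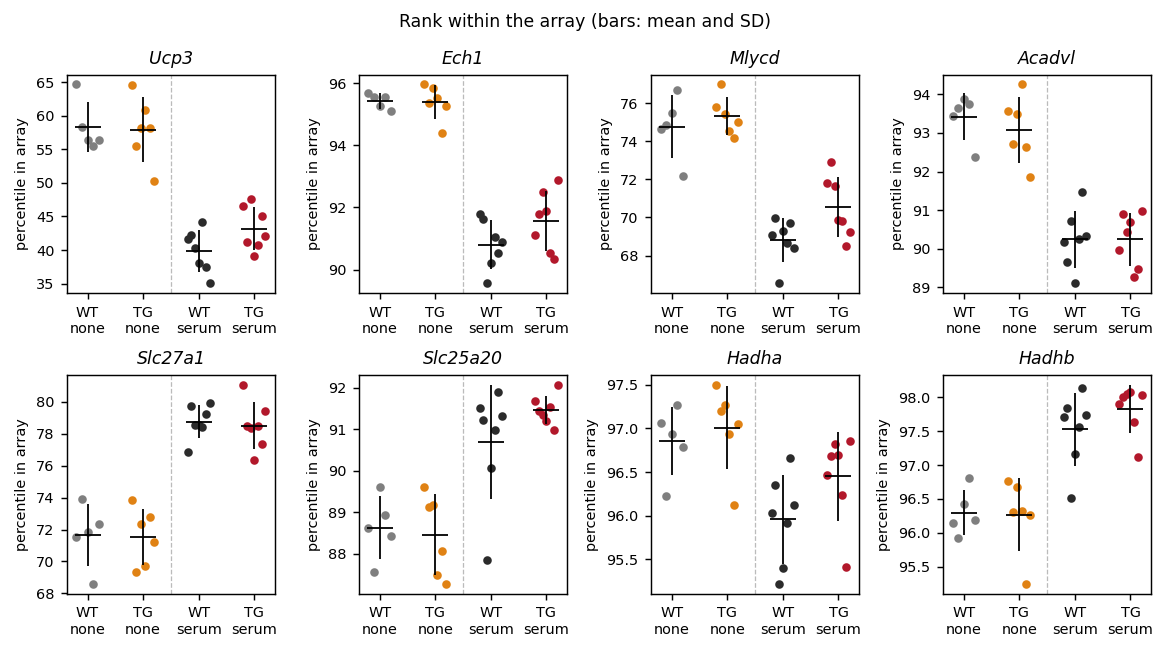
Percentile of 8 members within each array, in replicate order within a group, with the mean and SD as black bars. Ucp3, Ech1, Mlycd and Acadvl lie lower in every culture with serum than in any without serum of the same genotype, Slc27a1 lies higher, and Hadha and Hadhb move apart.

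Of 73 other genes of fatty acid metabolism, 69 were measured. Without serum 38 of 69 (55.1%, against 45.2% of genes) had a higher TG mean, 2 had an unadjusted p under 0.05, or 2.90% against 5.64% of probe sets (Med1, a coactivator subunit, and Pnpla2, the adipose triglyceride lipase) and 0 passed the adjusted test. With serum 42 of 69 (60.9%, against 44.6% of genes) had a higher TG mean, and 11 were higher and 2 lower at an unadjusted p under 0.05, together 18.8% against 10.7% of probe sets (4.39% higher and 6.31% lower), with 0 past the adjusted test. The smallest p-values were those of Acat1, the mitochondrial acetoacetyl-CoA thiolase, at 0.34 ± 0.09 (SE, adjusted p = 0.30), Eci2, an enoyl-CoA isomerase, at 0.21 ± 0.06, Cpt1c, the neuronal carnitine palmitoyltransferase, at -0.38 ± 0.12, and Slc27a3 at -0.33 ± 0.11. By rank, 35 of 69 passed between serum and no serum in WT (14 higher, 21 lower), or 50.7% against 58% of probe sets, and 40 in TG (18 higher, 22 lower), or 58.0% against 59.9%.

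Among the genes that passed by rank in WT, Fabp4, a fatty acid binding protein of adipocytes and endothelium whose mean log2 lay under 5 in all 4 groups, rose by 18.7 points, Angptl4, a secreted inhibitor of lipoprotein lipase, by 13.6, Gpihbp1, which anchors lipoprotein lipase on capillaries, by 13.4, and Pparg by 10.5. Other genes that rose in WT included Them4 by 12.2 points, Pdp2 by 9.94, Slc27a5 by 9.49 and Acsbg1 by 8.54. Acaa1b, the near-identical copy of Acaa1a, fell by 19.7 points, whereas Acaa1a, at 1.49 points higher, did not pass. The fatty acid transport protein Slc27a2 fell by 14.3 points, the acyl-CoA synthetase Acsl6 by 13.7 and Slc27a3 by 11.2. Endothelial markers moved in the same comparison, with 7 of 10 higher and 1 lower past the adjusted test in WT and 4 higher and 1 lower in TG (background 28.8% higher and 29.2% lower in WT, 29.8% and 30.1% in TG). In WT they went from a list mean of 5.20 to 5.63 without serum to 5.98 to 6.72 with serum on scales that differ. Of the 7 adipocyte markers 2 were higher, Fabp4 among them, and 4 lower past the test in each genotype, with a median of -5.51 points in WT. The part of these cells in the rank changes was not tested.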

How the data were processed

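RNA of 25 cultures was hybridised to Affymetrix Mouse Gene 1.0 ST arrays. The authors made the deposited log2 intensities in Expression Console 1.1 by RMA, and they were used as given. Whether the arrays with and without serum were normalized together is not given in the sources used here. Arrays have no counting depth, so their number limits the precision.

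A gene was measured where a probe set was annotated to it alone: 21789 probe sets carried 1 symbol, 1621 several and 12147 none. TG and WT were compared within each serum condition, and serum by within-array percentile over all 25 arrays, with limma 3.58.1 (lmFit, eBayes) in R 4.3.3, two-sided and adjusted by Benjamini-Hochberg over 35557 probe sets, at 0.05. The scripts were tested on simulated data. The members and lists were chosen with earlier results of these data known. All members are named, with values by array for those past the adjusted test, the 4 smallest p of a comparison and Cd36, Ppara and Pdk4, as lowest, median and highest in groups over 5. Other pathway genes are named for the 4 smallest p or among those that passed. Promoters and gene starts are those of RefSeq on GRCm38.p6, not used here for Decr1, Acaa2 and Lpl. Alternatives covered array weights, renormalization, dim probe sets, other probe sets, a replicate block, single arrays left out and other rank scales.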

Additional observations from a re-analysis of the deposited data

Results flagged for a closer look

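Within the groups of 5 to 7 cultures, 14 of 124 tests of a member in a group found its highest or lowest culture apart from the others by Dixon's ratio of that gap to the group's range, where chance alone gives about 1 in 20 and members of one array are not independent. TG serum replicate 6 accounted for 6 of them, the ratio being 0.5777 for Acacb, 0.5876 for Hadha, 0.6942 for Acaa2, 0.5925 for Decr1 and 0.6206 for Etfdh, all lowest there, and 0.6692 for Acot2, highest there. In WT no serum replicate 2 the ratio was 0.7216 for Acacb and 0.7966 for Acadl. In TG no serum replicate 5 it was 0.7244 for Cd36 and 0.7736 for Etfb. In WT serum replicate 3 it was 0.5804 for Mlycd. Each of these 4 cultures had the lowest myocyte marker mean of its group. Acadsb was lowest in 3 further cultures, with ratios of 0.7586 in TG no serum replicate 4, 0.5887 in WT serum replicate 6 and 0.5994 in TG serum replicate 7. The part of cell make-up in these gaps was not tested.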

How the results depend on the processing

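No member passed the adjusted test between TG and WT in either serum condition under any alternative run. In the main fit without serum, Hey2 did not pass that test either. The count of members at an unadjusted p under 0.05 moved, given here without the share of all probe sets in each setting. Without serum it was 0, and it became 1 in a fit over all 25 arrays, 3 with array weights, 3 with the myocyte marker covariate, 7 without the 3 arrays low in sarcomere transcripts and 0 to 3 with single arrays left out (3 without TG replicate 5). With serum it was 9, and it became 18 with array weights, 20 with arrays centred on their medians, 3 with the marker covariate, 2 without WT serum replicates 3 and 4 (chosen after the data were seen) and 3 to 19 with single arrays left out. Centred, 29 of 31 members were then higher in TG with serum. Without serum 18 to 28 were higher over the alternatives that kept all arrays. The interaction with the marker covariate, also chosen after the data were seen, was above 0 for 21 members. These counts of higher members are likewise given without the share of all probe sets. That share moved with the scaling in the comparison without serum.

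Cultures with the same replicate number did not deviate together, with correlations of -0.45 to 0.15 without serum and -0.36 to 0.06 with serum, so the numbers were not taken as pairs. With the replicate number as a block the count was 1 without serum and 3 with serum, and 10 members passed between serum and no serum in WT in place of 20. These fits kept only cultures whose number occurred in both groups, and by rank only the arrays of 1 genotype. With the WT arrays fitted alone and no block, 4 members already lost the call, so the fall to 10 is not that of the block alone.

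By rank, 16 to 21 members passed in WT and 15 to 16 in TG with single arrays left out. On the deposited log2 scale 20 members in WT and 23 in TG were higher with serum, in place of 10 and 12. The members that passed on at least 1 of the scales and changed sign were in WT Lpl 0.26, Hadha 0.21, Echs1 0.13, Acaa2 0.036, Etfa 0.47, Etfb 0.43, Pdk4 0.12 and Ppard 0.044, and in TG Lpl 0.34, Cpt2 0.086, Acadm 0.36, Hadha 0.28, Echs1 0.29, Pdk4 0.11 and Ppard 0.016. Members that passed on neither scale changed sign as well, Acadm and Pdk2 in WT, and Acacb, Acaa2, Pdk2 and Ppara in TG. The cause was not tested, and the spread within an array differs between the serum conditions on that scale. Of 3472 member values under alternatives, 55 lost the call and 24 gained it in the same direction, 15 changed sign with a call on at least 1 side, and 224 that were called on neither side changed sign.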
